A study of Mus musculus with 4 samples.

Results

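Dividing and label-retaining cells of the normal mouse colonic crypt were set against each other on 2 of the series' 4 arrays, 1 array for each kind of cell. The cells came from male H2B-GFP mice, whose transgene places a histone H2B fused to green fluorescent protein under a tetracycline-responsive element, so that doxycycline turns the label on. Doxycycline was given for 7 days, by which time all crypt cells carried bright nuclear GFP, and was then withdrawn for 2 days. Cells that went on dividing diluted the label and cells that did not divide kept it. Epithelial cells of isolated crypts were then sorted by fluorescence into GFPlow, described as proliferating, and GFPhigh, described as non-proliferating, and their Trizol-extracted total RNA was hybridised as biotin-labelled cRNA. Both groups therefore share the transgene, the doxycycline and its withdrawal. The driver of the tetracycline transactivator, the strain, the age and the number of mice behind each array are unknown from the sources used here. The other 2 arrays held unsorted crypts of male doxycycline-inducible β-catenin mice, untreated or given 2.0 mg/ml doxycycline in the drinking water for 5 days, and enter below only as a reference for control probe sets and, with the 2 sorted arrays, in choosing 1 probe set per gene by its mean level.

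All values are log2 expression levels, and each difference is GFPlow minus GFPhigh for the same probe set, so that 1 unit is 2-fold. A gene counted as measured when at least 1 of the 2 arrays read 5 or more, which held for 9381 of the 18194 genes with a probe set of a single symbol. Lower readings were raised to this floor of 5, so where 1 array lay beneath it the true difference may be larger than the one given, which applied to 464 genes. With 1 array per group there is no replicate spread, no test was run, and "higher" and "lower" below describe these 2 arrays. In bulk samples such as these, fewer cells of a type and less RNA per cell cannot be told apart.

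The colonic epithelium renews itself from stem cells at the crypt base, whose daughters divide a few more times while moving upward and then stop dividing as they mature. Wnt signals are strongest at the base and keep cells dividing, and BMP signals are strongest near the surface. Absorptive colonocytes take up salt and water and oxidise butyrate, goblet cells make mucus, deep crypt secretory cells sit among the stem cells, and rare enteroendocrine cells release hormones. A label diluted at each division separates cells by how often they divided since labelling stopped, and not by cell type.

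Of the measured genes, 826 (8.81%) were 2-fold or more higher in GFPlow and 403 (4.3%) were 2-fold or more lower. These shares, with the shares by level given below, are the background against which every 2-fold count should be read. For counts of genes above 0 the background is 4991 of the measured genes (53.2%). At 4-fold the counts were 182 and 41, and at 8-fold 22 and 3. The median difference of all measured genes was 0.04, and 6469 genes (69.0%) lay within 1.5-fold. The share of genes 2-fold or more higher was 18.5% at mean levels from 5 to 7, 13.6% from 7 to 9, 5.61% from 9 to 11 and 1.81% above 11. The shares 2-fold or more lower were 7.73%, 5.32%, 3.32% and 2.31% in the same bins, so large differences were mostly seen in genes of low and middle level.

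**Figure D1:**
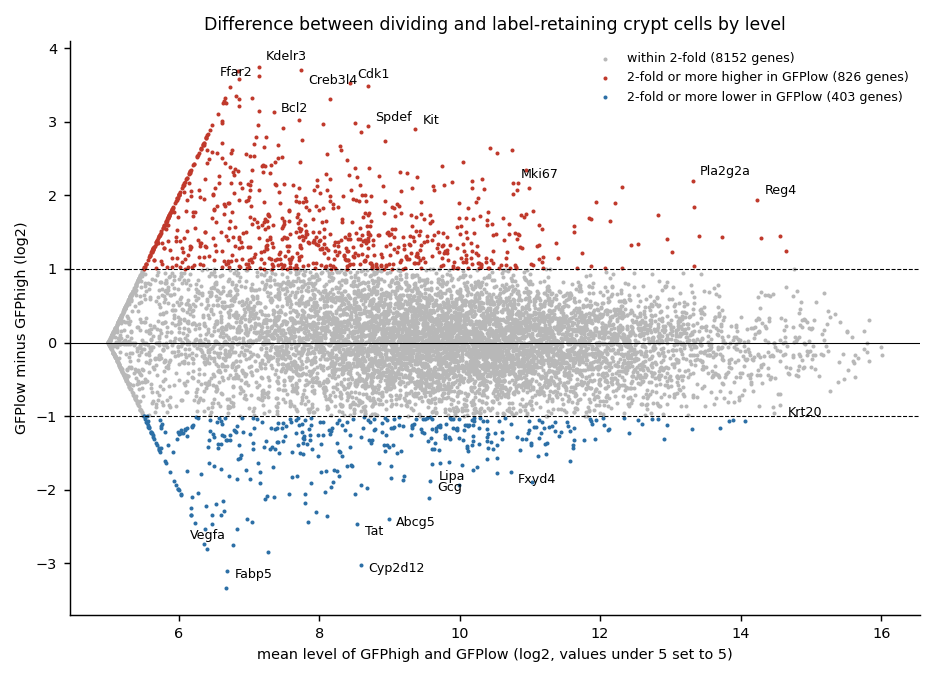
Difference between GFPlow and GFPhigh (log2, vertical axis) against the mean of both levels (log2, horizontal axis) for the 9381 measured genes, 1 point a gene, with 826 genes 2-fold or more higher in GFPlow in red, 403 lower in blue and dashed lines at 2-fold. The straight edges at the left are genes with 1 array set to the floor of 5, and the spread narrows toward high levels.

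The 2 arrays had 17412 (GFPhigh) and 17462 (GFPlow) of 45101 probe sets at or above 5, with medians of 3.38 and 3.35. Of the genes called higher, 277 had another measured probe set, which pointed the same way in 254 and was itself past 2-fold in 133. Among those called lower the counts were 153, 134 and 58. All 24 poly-A spike probe sets, which detect bacterial RNAs added during labelling, were lower in GFPlow, by 0.41 to 1.36 (median difference -0.645), and the sources used here do not say whether equal amounts were added. They read 10.1 to 14.3 in GFPhigh but 2.05 to 3.74 on the crypt arrays of the other mice. The 18 hybridisation control probe sets had a median difference of -0.207, and those of Gapdh and β-actin differed by -0.21 to -0.04. The 3 probe sets of 18S ribosomal RNA were higher in GFPlow, by 0.09 to 0.45, and read 12.4 to 13.6 on the sorted arrays but 2.11 to 3.83 on the crypt arrays. If the spikes had been set equal, the median of all measured genes would have been 0.668 instead of 0.04, with 2658 genes 2-fold or more higher and 97 lower, so 96.5% of the calls would have been higher against 67.2% on the deposited scale. All directions below are relative to the deposited scale.

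The labels were first set against defining genes. Epithelial genes were near equal and high: Epcam, the epithelial adhesion molecule, read 15.30 in GFPhigh and 15.19 in GFPlow, a difference of -0.11. Krt8, a keratin of simple epithelia, read 15.54 in GFPhigh and 15.38 in GFPlow, a difference of -0.16. All 10 epithelial genes of the list were measured, none past 2-fold, with differences from -0.74 to -0.04. Mki67, which encodes the proliferation antigen Ki-67, read 9.68 in GFPhigh and 11.85 in GFPlow, a difference of 2.17. Cdk1, the kinase that drives entry into mitosis, read 6.67 in GFPhigh and 10.20 in GFPlow, a difference of 3.52. The proliferation genes therefore ran the way the labels say, and GFPhigh was not free of them.

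Most defining genes of other cell types were under the floor, with exceptions counted or named below. Measured genes numbered 2 for fibroblasts and 0 for smooth muscle, for endothelium, for red blood cells and for neural cells, and Col1a1 read 2.95 and 2.83, Acta2 2.75 and 2.83, and Pecam1 1.89 and 1.86 in GFPhigh and GFPlow. The leukocyte antigen Ptprc, which marks all white blood cells, read 2.47 in GFPhigh and 4.41 in GFPlow, both under the floor. Of 9 T cell genes only Itgae, an integrin of intraepithelial lymphocytes, was measured, at 5.50 in GFPhigh and 6.53 in GFPlow, a difference of 1.03, while Cd3e read 2.10 and 2.08. Of 6 mast cell genes only Cma1 was measured, at 3.68 in GFPhigh, under the floor, and 7.14 in GFPlow, a difference of at least 2.14, whereas the proteases Mcpt1, Mcpt2, Mcpt4, Cpa3 and Tpsb2 read 2.1 to 3.0 on both arrays. Of 10 myeloid genes 4 were measured, 2 with a bound only, and 3 were above 0, with differences from -0.01 to 0.53. Without a floor the median of these 4 was 0.96, with 2 genes 2-fold or more higher and 0 lower. The log2 levels of the 10 myeloid genes summed to 41.1 in GFPhigh and 46.4 in GFPlow, with Cd14, the one gene of them far above the floor, at 13.39 and 13.60. The part of white blood cells in any result below was not tested.

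The sequences that follow were chosen because genes of cell division, of secretory protein folding and of the interferon response are each known from other work to share a promoter element. The cell cycle homology region (CHR, searched as TTTGAA or TTCGAA) and the CCAAT box (CCAAT) are known from promoters of mitotic genes, and E2F sites (searched as TTTCCCGC, TTTGGCGC, TTTCGCGC or TTTGCCGC) from promoters of replication genes. All words were searched on both strands in RefSeq promoters of the GRCm38.p6 assembly, from 250 bases before to 50 bases after the start of the gene, for 27025 genes, 7717 of them measured here. Each line gives the 130 bases before and the 20 after the start, 5′ to 3′ on the gene's own strand. Capitals mark only the words for which a gene is shown. Other words can stand in lower case, as the CCAAT box does in Mcm6. Cdk1 (chr10:69352893-69353042, minus strand), Kif11 (chr19:37376252-37376401, plus strand), Ccnb2 (chr9:70421535-70421684, minus strand) and Hmmr (chr11:40733418-40733567, minus strand) are shown for the CHR with the CCAAT box, and Pole2 (chr12:69228171-69228320, minus strand) and Mcm6 (chr1:128359686-128359835, minus strand) for E2F words.
Cdk1: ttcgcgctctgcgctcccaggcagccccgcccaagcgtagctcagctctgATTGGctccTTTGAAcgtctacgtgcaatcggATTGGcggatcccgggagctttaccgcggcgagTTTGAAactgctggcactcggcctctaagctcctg
Kif11: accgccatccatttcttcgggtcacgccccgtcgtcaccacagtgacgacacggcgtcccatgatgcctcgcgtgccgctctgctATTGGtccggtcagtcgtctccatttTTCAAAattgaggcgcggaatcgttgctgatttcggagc
Ccnb2: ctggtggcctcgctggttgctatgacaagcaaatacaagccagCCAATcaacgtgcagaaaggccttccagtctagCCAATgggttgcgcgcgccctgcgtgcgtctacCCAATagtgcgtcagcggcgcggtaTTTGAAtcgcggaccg
Hmmr: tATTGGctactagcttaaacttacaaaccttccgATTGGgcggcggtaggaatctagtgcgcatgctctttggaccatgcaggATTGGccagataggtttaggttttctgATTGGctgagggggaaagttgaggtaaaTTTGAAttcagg
Pole2: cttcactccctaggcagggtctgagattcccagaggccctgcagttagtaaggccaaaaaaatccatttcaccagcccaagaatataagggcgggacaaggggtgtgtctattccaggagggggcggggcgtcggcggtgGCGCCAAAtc
Mcm6: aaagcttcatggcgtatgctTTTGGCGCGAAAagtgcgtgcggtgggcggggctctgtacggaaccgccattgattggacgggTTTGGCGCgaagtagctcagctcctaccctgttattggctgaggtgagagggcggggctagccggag

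The CHR stood in the promoters of 31 of 43 mitotic genes with a promoter in the table (72.1%), 9 of 15 cohesin and condensin genes (60.0%) and 11 of 23 kinetochore genes (47.8%). Over all genes the share was 21.7%, and over measured genes 16.4%. CHR and CCAAT box together stood in 26 of the 43 mitotic promoters (60.5%), against 8.61% of all genes. E2F words stood in 7 of 16 origin licensing promoters (43.8%), 6 of 15 cohesin and condensin promoters (40.0%) and 11 of 29 replication fork promoters (37.9%). They stood in 2 of 43 mitotic promoters (4.65%) and 2 of 23 kinetochore promoters (8.70%), against 2.61% of all and 4.90% of measured genes. Cohesin and condensin genes thus held each word often, as did the 11 RB and E2F family genes, with a CHR in 6 and an E2F word in 4. Whether the same promoters held both was not counted. Over the genes 2-fold or more higher in GFPlow the shares were 24.5% for the CHR and 7.39% for E2F words, and over those lower 18.4% and 3.61%. The median level difference of mitotic genes was 1.66 for the 31 with a CHR and 1.49 for the 12 without, and that of kinetochore genes 2.07 for 11 with and 1.03 for 12 without. For E2F words the medians were 1.67 for 7 licensing genes with and 0.82 for 9 without, and 1.24 for 11 fork genes with and 1.23 for 18 without. A match describes letters in a window and is neither a binding site nor a cause.

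**Figure D2:**
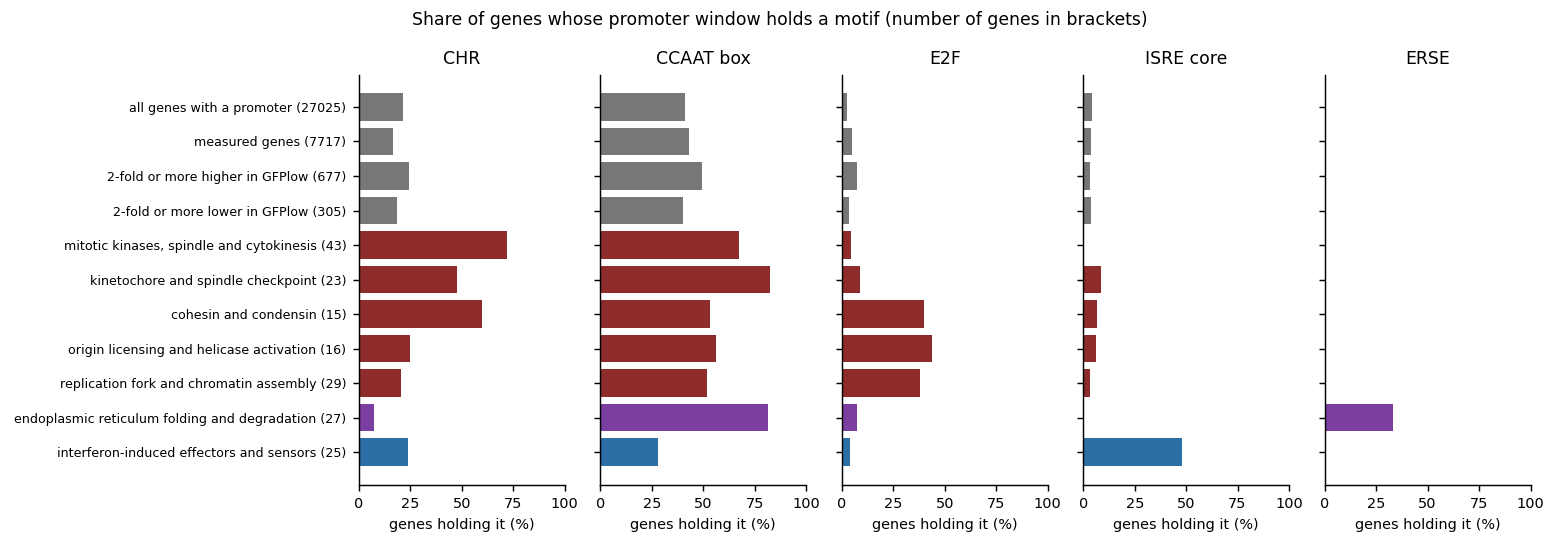
Share of genes (percent, horizontal axes) whose 300-base RefSeq promoter window holds the CHR, the CCAAT box, an E2F word, the interferon element core (ISRE core) or the endoplasmic reticulum stress element (ERSE), for all genes, measured genes, genes called in each direction and 7 gene lists, with the number of genes with a promoter in brackets. The CHR is at 72.1% in mitotic genes against 21.7% of all genes, E2F words at 43.8% in licensing genes, and the ISRE core at 48.0% in interferon-induced genes.

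Mitotic genes were the largest block higher in GFPlow. Of 55 genes of mitotic kinases, spindle and cytokinesis on the array, 49 were measured, 32 were 2-fold or more higher and 0 lower, with a median difference of 1.63, and 16 of the 49 had a bound only. Ccnb2, the mitotic cyclin B2 that activates Cdk1, read 7.57 in GFPhigh and 10.30 in GFPlow, a difference of 2.74. Kif11, the motor that pushes spindle poles apart, read 4.43 in GFPhigh, under the floor, and 7.83 in GFPlow, a difference of at least 2.83, although its other probe set gave 0.86. Hmmr, a spindle protein, read 5.44 in GFPhigh and 7.88 in GFPlow, a difference of 2.43, with 0.10 on its other probe set. With Cdk1, these 3 are the genes whose promoters are printed above with the CHR and the CCAAT box. Plk1, the polo-like kinase that drives several steps of mitosis, read 5.2 in GFPhigh and 8.51 in GFPlow, a difference of 3.31. Ube2c, the ubiquitin-conjugating enzyme that helps end mitosis, read 9.21 in GFPhigh and 11.43 in GFPlow, a difference of 2.22. Birc5 (survivin) and Cdca8 (borealin), partners of the Aurora B kinase, differed by 2.07 and 2.12. Members near 0 were Fzr1, the activator of the anaphase-promoting complex that is used in resting and early cycle cells, at -0.10, and the kinase Mastl at -0.10.

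The kinetochore, the protein plate that ties chromosomes to the spindle, followed the mitotic genes. Of 38 genes 25 were measured, 14 were 2-fold or more higher and 0 lower, with a median of 1.64. A bound only was available for 6 of the 25. Spc24, a subunit of the Ndc80 complex, read 6.5 in GFPhigh and 9.81 in GFPlow, a difference of 3.31. Cenpa, the histone variant that marks the centromere, read 6.57 in GFPhigh and 9.53 in GFPlow, a difference of 2.97. Bub1b, a checkpoint kinase-like protein that delays chromosome separation, read 5.04 in GFPhigh and 8.29 in GFPlow, a difference of 3.25. Mad2l1, another checkpoint protein, differed by 1.86, while Bub3, which also serves outside the checkpoint, differed by 0.86. The chromosome rings split by subunit. Of condensin I, which compacts chromosomes, Ncapd2 read 6.49 in GFPhigh and 8.95 in GFPlow, a difference of 2.46. Ncapg and Ncaph, of the same complex, differed by 2.31 and 1.80, and the shared core subunits Smc2 and Smc4 by 1.46 and 0.78. Condensin II had Ncapg2 at 5.89 in GFPhigh and 8.54 in GFPlow, a difference of 2.65, but Ncapd3 and Ncaph2 at 0.26 and 0.21. Of cohesin, which holds sister chromatids together, Rad21 read 11.30 in GFPhigh and 11.37 in GFPlow, a difference of 0.07. The cohesin subunits Stag2 and Smc3 differed by 0.15 and 0.58, and the cohesion factors Cdca5 (sororin) and Esco2 by 1.58 and at least 1.83.

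Replication genes were also higher. Of 27 origin licensing genes 21 were measured and 11 were 2-fold or more higher, with a median of 1.05, and of 36 fork genes 35 were measured and 21 higher, with a median of 1.14, none lower in either list. Among the measured genes, 4 licensing and 8 fork genes had a bound only. Mcm6, a subunit of the replicative helicase whose promoter is printed above, read 8.81 in GFPhigh and 10.98 in GFPlow, a difference of 2.18. Mcm2, another subunit of that helicase, read 4.59 in GFPhigh, under the floor, and 7.31 in GFPlow, a difference of at least 2.31. Pole2, a subunit of the leading-strand polymerase, read 5.71 in GFPhigh and 8.50 in GFPlow, a difference of 2.79. Pcna, the sliding clamp, read 12.53 in GFPhigh and 13.36 in GFPlow, a difference of 0.83. The clamp therefore lay under 2-fold at a high level. The origin recognition subunits Orc2 to Orc6 differed by -0.01 to 1.3, with Orc4 lowest, and Cdc6, the loader of the helicase, read 5.10 in GFPhigh and 5.09 in GFPlow, a difference of -0.02. Geminin (Gmnn), the inhibitor of licensing, differed by 0.49, and its target Cdt1 by 1.67. Nucleotide supply ran alongside: Rrm2, the small subunit of ribonucleotide reductase, read 7.00 in GFPhigh and 9.61 in GFPlow, a difference of 2.61, with probe sets down to 1.3. Tk1, thymidine kinase, read 7.04 in GFPhigh and 9.27 in GFPlow, a difference of 2.23. Samhd1, which breaks deoxynucleotides down, read 10.92 in GFPhigh and 9.85 in GFPlow, a difference of -1.07, the one nucleotide gene 2-fold or more lower of 24 measured, against 9 higher.

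The regulators of the cell cycle were less uniform than its machinery. Of 18 measured cyclins and cyclin-dependent kinases 8 were 2-fold or more higher and 0 lower. Cdk4 and Cdk6, the kinases that D cyclins activate, differed by 1.75 and 1.27, and Cdk2 by 1.3. The D cyclins themselves, Ccnd1, Ccnd2 and Ccnd3, differed by 0.55, 0.49 and 0.47, and the E cyclin Ccne1 read 5.25 in GFPhigh and 5.39 in GFPlow, a difference of 0.14. Of the E2F and RB genes, only the repressor E2f8 passed 2-fold, at 5.89 in GFPhigh and 7.83 in GFPlow, a difference of 1.93. Rb1, the retinoblastoma protein, read 11.01 in GFPhigh and 10.29 in GFPlow, a difference of -0.72, and E2f5 differed by -0.84, with its probe sets at -0.84 to 1.39. Foxm1 and Mybl2, activators of mitotic genes, were under the floor on both arrays, at 4.01 and 4.03 and at 3.47 and 3.56. Among inhibitors, Cdkn2c (p18) read 5.18 in GFPhigh and 7.68 in GFPlow, a difference of 2.50. Cdkn1a (p21), which halts the cycle, read 13.04 in GFPhigh and 12.29 in GFPlow, a difference of -0.75.

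Repair and nuclear transport genes were higher in smaller numbers. Of 41 repair genes 23 were measured, 7 of them with a bound only. Of the 23, 8 were 2-fold or more higher and 0 lower. Brca1, of homologous recombination, read 4.12 in GFPhigh, under the floor, and 7.69 in GFPlow, a difference of at least 2.69. Ube2t, the ubiquitin-conjugating enzyme of the Fanconi pathway, read 6.11 in GFPhigh and 8.52 in GFPlow, a difference of 2.41. The repair and checkpoint genes Chek1 and Brca2 lay near the floor, with bounds of 0.13 and 0.51. Of 34 nuclear envelope and pore genes 11 were higher and 0 lower, among them the scaffold nucleoporins Nup85 (1.44), Nup107 (1.23) and Nup133 (1.43). Among the lamins, which line the nucleus, Lmnb1 read 8.12 in GFPhigh and 9.58 in GFPlow, a difference of 1.46. Lmna, the A-type lamin typical of differentiated cells, read 12.76 in GFPhigh and 12.43 in GFPlow, a difference of -0.33. Chromatin enzymes stayed near the background, with 3 higher and 1 lower of 31. The higher ones were Atad2 (1.6), Hells (1.29) and Hdac2 (1.06), and the lower was Tet2, which oxidises methylcytosine, at 10.70 in GFPhigh and 9.58 in GFPlow, a difference of -1.12.

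**Figure D3:**
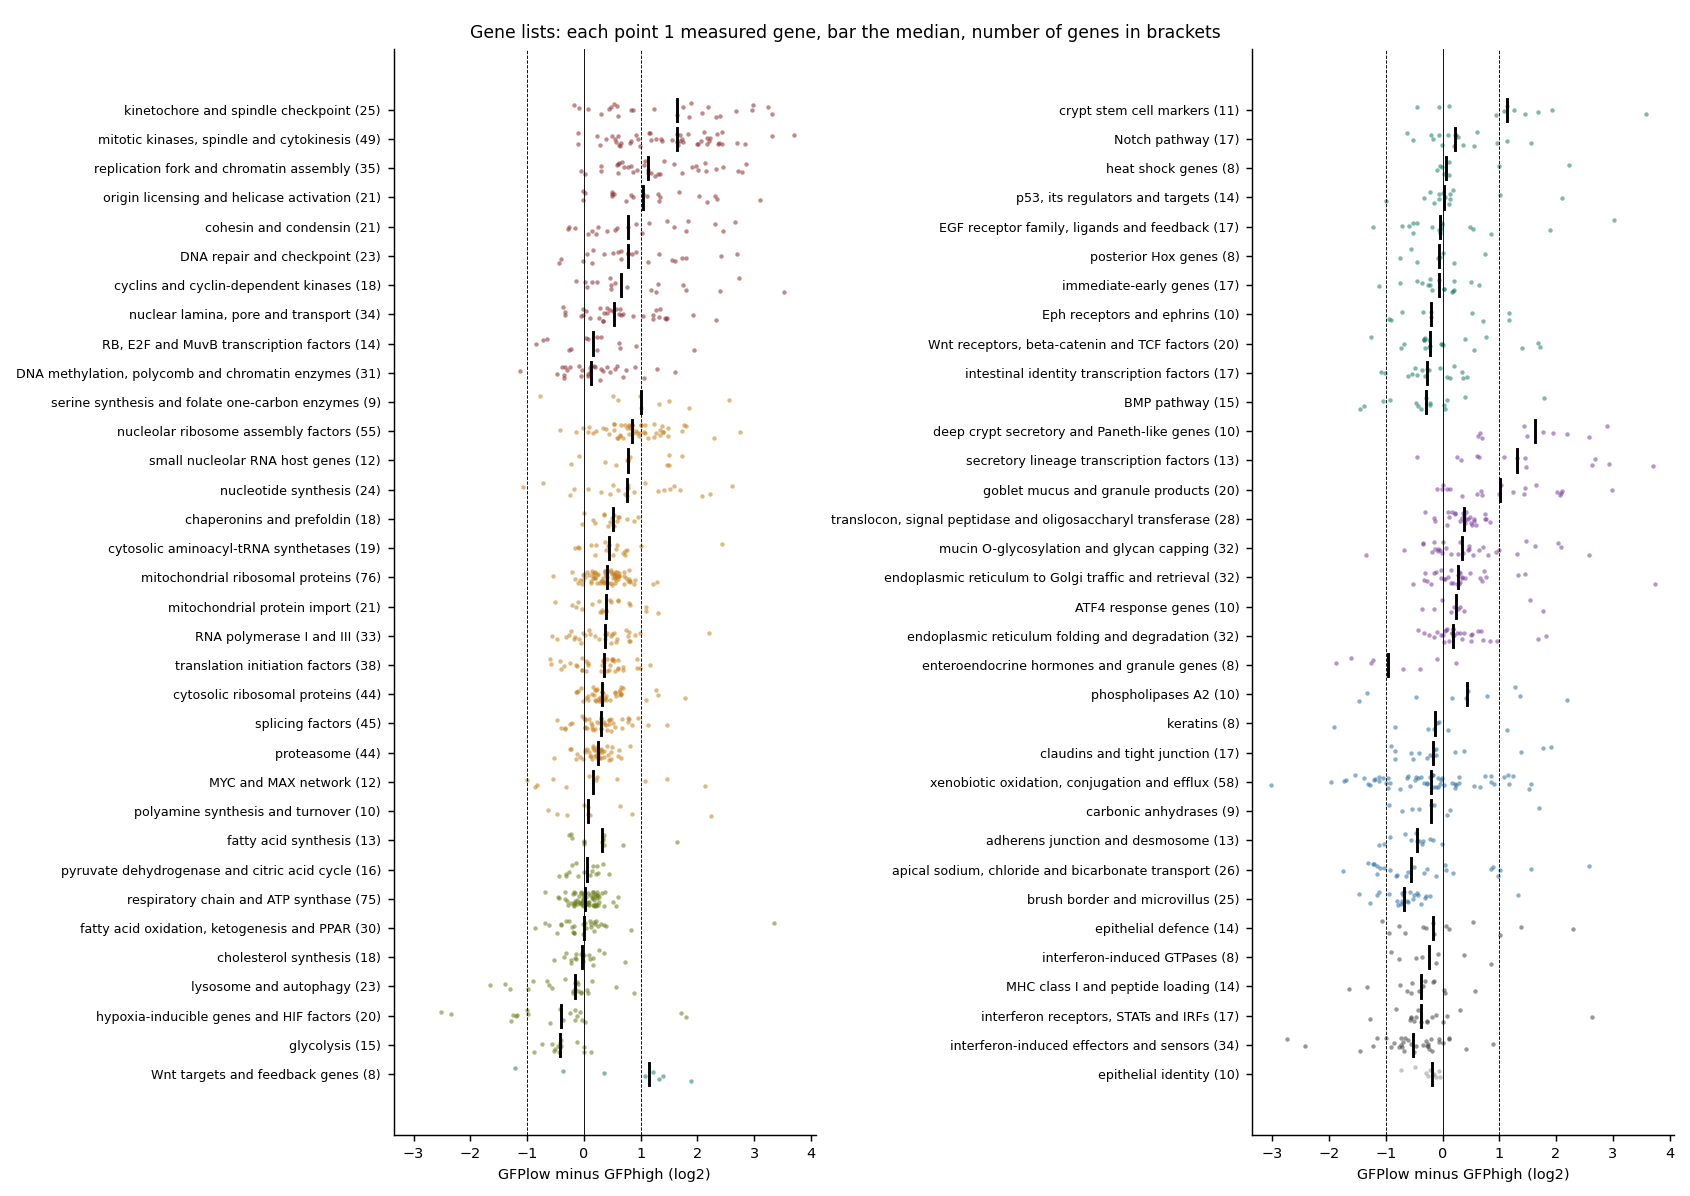
Differences between GFPlow and GFPhigh (log2, horizontal axes) of the lists with 8 or more measured genes, 1 point a gene, with a bar at each list's median, the number of genes in brackets and dashed lines at 2-fold. Kinetochore, mitotic and deep crypt secretory genes have the highest medians, 1.64, 1.63 and 1.63, and enteroendocrine genes the lowest, -0.96, but with a floor of 4 the kinetochore median is 1.17, the deep crypt one 1.82 and the enteroendocrine one -0.40, against -0.69 for the brush border.

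Growth genes were higher by small amounts over many members. Ribosome assembly in the nucleolus stood out by count: of 55 genes, all measured, 20 were 2-fold or more higher and 0 lower, with a median of 0.85 and 52 above 0. Fbl, the methyltransferase that modifies ribosomal RNA, read 10.002 in GFPhigh and 11.73 in GFPlow, a difference of 1.73. Utp14a, of the small-subunit processome, read 6.96 in GFPhigh and 8.76 in GFPlow, a difference of 1.80. Rpf2, a large-subunit factor, read 6.38 in GFPhigh and 9.12 in GFPlow, a difference of 2.75, but its other probe set gave -0.24. Of 33 genes of RNA polymerases I and III, 1 was 2-fold or more higher, Polr1a at 2.20, the catalytic subunit of the polymerase that makes ribosomal RNA. Ribosomal proteins of the cytosol had a median of 0.31 over 44 genes (39 above 0, 4 past 2-fold), and those of mitochondria a median of 0.40 over 76 genes (67 above 0, 2 past 2-fold). Chaperonins and prefoldin, which fold actin and tubulin, had a median of 0.51 with 0 of 18 past 2-fold, and the proteasome 0.24 with 0 of 44. Host genes of small nucleolar RNAs had 4 of 12 past 2-fold, led by Snhg5 at 8.71 in GFPhigh and 10.44 in GFPlow, a difference of 1.73.

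One-carbon and polyamine enzymes differed step by step. Of 9 measured serine and folate enzymes 4 were 2-fold or more higher. Phgdh, the first enzyme of serine synthesis, read 6.83 in GFPhigh and 9.40 in GFPlow, a difference of 2.56, with probe sets from 0.45 to 3.27. Mthfd1l and Mthfd2, of the mitochondrial folate pathway, differed by 1.85 and at least 1.32. Srm, spermidine synthase, read 7.42 in GFPhigh and 9.66 in GFPlow, a difference of 2.24. Odc1, the first enzyme of polyamine synthesis, read 11.24 in GFPhigh and 11.32 in GFPlow, a difference of 0.08. The remaining 8 polyamine genes lay between -0.63 (Azin1, an antizyme inhibitor) and 0.84 (Dohh). Of 12 measured genes of the MYC network 3 were 2-fold or more higher and 0 lower. Mycl read 5.95 in GFPhigh and 8.09 in GFPlow, a difference of 2.14. Myc differed by 1.46 and Mlxipl, the glucose-responsive partner of Mlx, by 1.07. Mxi1, which competes with MYC for its partner Max, read 12.28 in GFPhigh and 11.29 in GFPlow, a difference of -0.996. Mxd1, of the same antagonist family, differed by -0.83 and Max itself by -0.54, while the antagonists Mxd4 and Mnt differed by 0.57 and 0.24.

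Mitochondrial energy genes were near equal. The respiratory chain and ATP synthase had a median of 0.02 over 75 genes with 0 past 2-fold in either direction, and the citric acid cycle 0.06 over 16. Fatty acid oxidation, the main use of butyrate in the colon, had a median of 0.00 over 30 genes. Its one gene past 2-fold was the thioesterase Acot1, at 5.14 in GFPhigh and 8.50 in GFPlow, a difference of 3.35. Cpt1a, which admits long-chain fatty acids to mitochondria, read 10.51 in GFPhigh and 9.65 in GFPlow, a difference of -0.86. Glycolysis ran the other way, with 12 of 15 genes below 0 and a median of -0.43, though 0 were past 2-fold. Hk1, hexokinase 1, read 12.10 in GFPhigh and 11.22 in GFPlow, a difference of -0.88. Slc2a1, the glucose transporter GLUT1, read 13.41 in GFPhigh and 12.68 in GFPlow, a difference of -0.73. The sterol genes had a median of -0.03 over 18, with 0 past 2-fold.

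Genes known as targets of hypoxia-inducible factor were split but mostly lower. Of 20 measured, 6 were 2-fold or more lower and 2 higher. Vegfa, the vascular growth factor, read 8.09 in GFPhigh and 5.56 in GFPlow, a difference of -2.53. Adm, the vasodilator adrenomedullin, read 7.77 in GFPhigh and 5.43 in GFPlow, a difference of -2.34. Bnip3, which marks mitochondria for removal, read 9.38 in GFPhigh and 8.20 in GFPlow, a difference of -1.18, and P4ha1, a collagen prolyl hydroxylase, differed by -1.24. On the other side, Ndrg1 read 10.06 in GFPhigh and 11.76 in GFPlow, a difference of 1.70, and Hilpda, a lipid droplet protein, was at least 1.80 higher. The factor Hif1a differed by -0.60 and Epas1 by -0.11. The creatine system, which buffers ATP, was divided, also between its kinases. Of 5 measured genes 2 were 2-fold or more higher and 1 lower, with a median of -0.66. Gatm, the first enzyme of creatine synthesis, read 4.48 in GFPhigh, under the floor, and 8.33 in GFPlow, a difference of at least 3.33. Ckb, the cytosolic kinase, was at least 1.59 higher. Ckmt2, a mitochondrial kinase, read 7.65 in GFPhigh and 5.31 in GFPlow, a difference of -2.34, and the creatine importer Slc6a8 differed by -0.86. The 3 lysosomal genes past 2-fold were all lower, of 23 measured. Lipa, the acid lipase, read 10.43 in GFPhigh and 8.78 in GFPlow, a difference of -1.65 with probe sets from -1.65 to -0.50, and Npc1, the cholesterol exporter, and Neu1, a sialidase, differed by -1.39 and -1.31.

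Wnt pathway genes differed by role. Of 22 target and feedback genes only 8 were measured, and 5 of these were 2-fold or more higher. Axin2, a feedback inhibitor, read 6.91 in GFPhigh and 8.23 in GFPlow, a difference of 1.32. Cd44, an adhesion receptor, read 7.25 in GFPhigh and 9.13 in GFPlow, a difference of 1.88. Sfrp1, a secreted antagonist, was the one lower, at 8.35 in GFPhigh and 7.14 in GFPlow, a difference of -1.21, with probe sets from -2.12 to -0.07. The receptors and effectors were divided. Fzd8 read 5.35 in GFPhigh and 7.07 in GFPlow, a difference of 1.72. Fzd7, a receptor of crypt base cells, differed by 1.41 and Fzd6 by at least 1.68. Fzd5, at a much higher reading on its own probe set, read 12.32 in GFPhigh and 11.59 in GFPlow, a difference of -0.72, and the co-receptor Lrp6 differed by -0.67. Tcf7l2, the main partner of β-catenin in gut epithelium, read 12.04 in GFPhigh and 10.78 in GFPlow, a difference of -1.27, and all its probe sets lay between -1.35 and -1.05. Tcf7l1 differed by 0.76 and Ctnnb1, β-catenin itself, by -0.33. Lef1 was under the floor, at 2.20 and 2.19.

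Stem cell markers were higher in 7 of 11 measured, with 3 bounds. Lgr5, a receptor of crypt base stem cells, read 4.14 in GFPhigh, under the floor, and 6.25 in GFPlow, a difference of at least 1.25. Ascl2, a transcription factor of the same cells, read 4.01 in GFPhigh, under the floor, and 6.45 in GFPlow, a difference of at least 1.45. With a floor of 6 the differences of Lgr5 and Ascl2 were 0.25 and 0.45, under 2-fold. Lrig1 and Hopx, markers of slower-cycling or reserve cells in parts of the literature, differed by 1.13 and 1.69. Olfm4, a marker of small intestinal stem cells, was under the floor on both arrays, at 2.13 and 3.74. Prom1 differed by -0.45 and Sox9 by -0.07. Eph receptors and ephrins, which keep crypt base and upper cells apart by repulsion, had 2 of 10 measured members 2-fold or more higher and 0 lower, with a median of -0.21. Ephb3, a receptor of base cells, read 7.16 in GFPhigh and 8.34 in GFPlow, a difference of 1.18, and Ephb4 differed by 1.16. Their ligand Efnb2 read 12.10 in GFPhigh and 11.16 in GFPlow, a difference of -0.94, and Efna1 differed by -0.90. Efnb1 differed by -0.35, with probe sets from -0.49 to 0.65, so its direction depends on the probe set.

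Of 17 measured Notch genes 2 were 2-fold or more higher (11.8%) and 0 lower, with 6 below 0 and a median of 0.21. Of 15 measured BMP genes 3 were 2-fold or more lower and 1 higher, with a median of -0.30. Dll1, a Notch ligand of secretory cells, read 7.80 in GFPhigh and 9.36 in GFPlow, a difference of 1.56. The receptors Notch1 and Notch2 differed by 0.95 and 0.60, and the target Hes1 by 0.21. Bmp2, a ligand of upper crypt cells, read 11.91 in GFPhigh and 10.52 in GFPlow, a difference of -1.38. Smad7 and Smad6, inhibitory feedback genes, differed by -1.45 and -1.05. The other readouts, Id1, Id2 and Id3, differed by -0.22, 0.03 and -0.38, and Id4 was the exception, at 4.11 in GFPhigh, under the floor, and 6.79 in GFPlow, a difference of at least 1.79. In the EGF receptor pathway the receptors Erbb2 and Erbb3 differed by -0.71 and -0.59 and Egfr by 0.48, its probe sets from -0.59 to 0.48. The transcription factor Etv5 read 6.20 in GFPhigh and 9.22 in GFPlow, a difference of 3.02, with 0.84 on its other probe set, and the feedback inhibitor Spry1 differed by 1.90. The ligand Ereg was lower, at 6.22 in GFPhigh and 4.90 in GFPlow, under the floor, a difference of -1.22 or beyond.

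**Figure D4:**
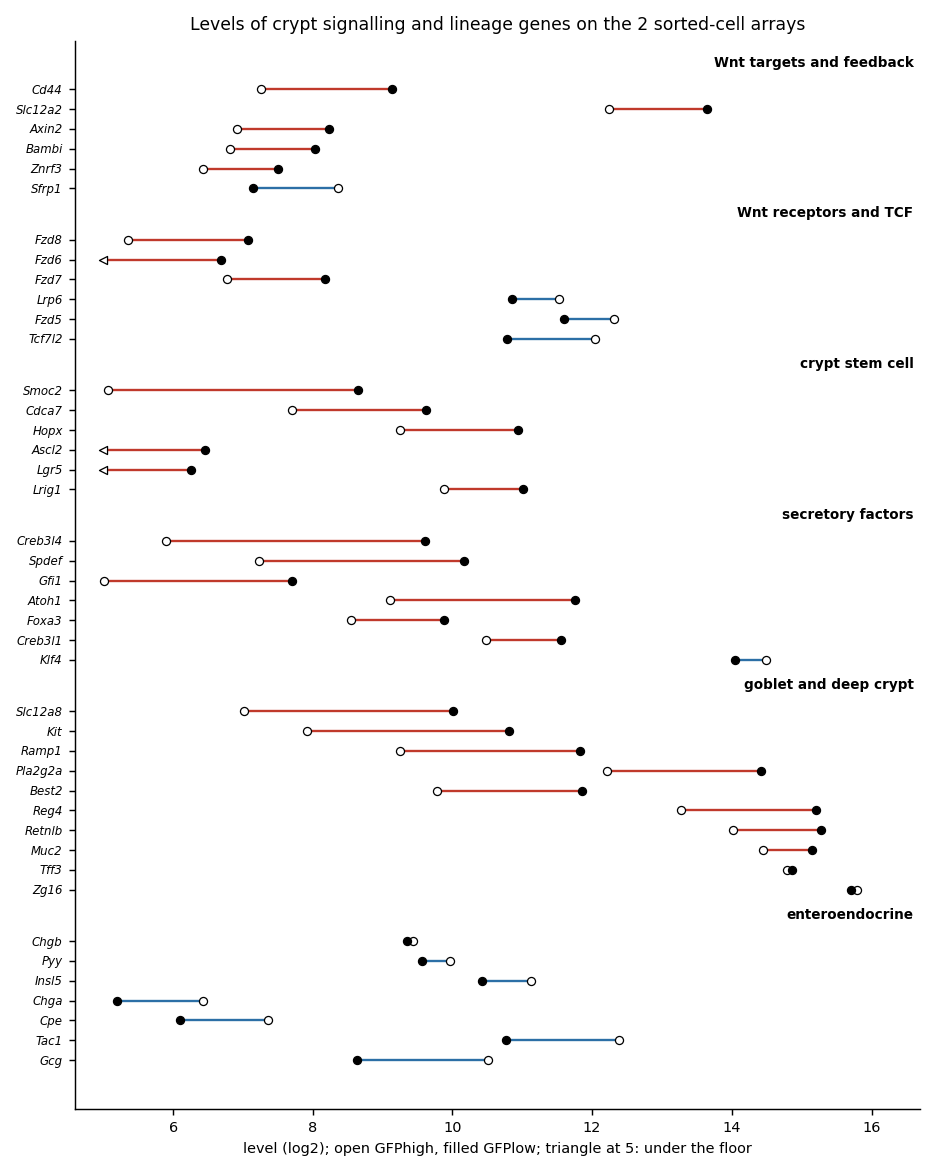
Levels (log2, horizontal axis) of Wnt, stem cell, secretory and enteroendocrine genes in GFPhigh (open circles) and GFPlow (filled circles), joined by a red line where GFPlow is higher and blue where it is lower, with triangles at 5 for values under the floor. Secretory factors and deep crypt genes lie to the right in GFPlow, while 6 of the 7 enteroendocrine genes shown differ visibly to the left and mature goblet products such as Tff3 (0.08) and Zg16 (-0.09) nearly coincide.

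Secretory transcription factors were higher in 8 of 13 measured and lower in 0, with a median of 1.32. Creb3l4, a membrane-bound factor, read 5.89 in GFPhigh and 9.60 in GFPlow, a difference of 3.71. Spdef, needed for goblet cell maturation, read 7.23 in GFPhigh and 10.17 in GFPlow, a difference of 2.94. Atoh1, which commits cells to the secretory fate, read 9.11 in GFPhigh and 11.75 in GFPlow, a difference of 2.64. Gfi1, which acts after Atoh1, differed by 2.68. Klf4, a factor of mature goblet cells and colonocytes, read 14.49 in GFPhigh and 14.05 in GFPlow, a difference of -0.45. The endocrine factors Neurod1 and Neurog3 differed by 0.60 and at least 0.32, at levels close to the floor. Deep crypt secretory genes were higher in 7 of 10, all 10 above 0, with 3 bounds. A gene under the floor in GFPhigh alone can only lie above 0. With a floor of 6, deep crypt secretory genes were higher in 6 of 8 measured. Kit, a receptor kinase used to isolate these cells, read 7.92 in GFPhigh and 10.81 in GFPlow, a difference of 2.90. Reg4, their secreted lectin, read 13.27 in GFPhigh and 15.21 in GFPlow, a difference of 1.94. Ang4, an antimicrobial ribonuclease, read 4.32 in GFPhigh, under the floor, and 6.77 in GFPlow, a difference of at least 1.77, and Lyz1, lysozyme, differed by 1.49.

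Goblet genes were graded by product. Of 20 measured 10 were 2-fold or more higher and 0 lower, with a median of 1.01. Slc12a8 read 7.02 in GFPhigh and 10.002 in GFPlow, a difference of 2.98. Best2, a bicarbonate channel of goblet cells, read 9.77 in GFPhigh and 11.85 in GFPlow, a difference of 2.08. The granule proteins Sytl4 and Sytl2 differed by 2.10 and 1.43. Muc2, the gel-forming mucin, read 14.45 in GFPhigh and 15.15 in GFPlow, a difference of 0.69. Clca1, Tff3, Fcgbp and Zg16, all secreted into mucus, differed by 0.01, 0.08, 0.35 and -0.09. Their levels were above 13 in GFPhigh, as was that of Reg4, which differed by 1.94. Enzymes that build and cap mucin sugars were higher in 6 of 32 and lower in 1. Galnt5, which starts sugar chains, read 5.18 in GFPhigh and 7.77 in GFPlow, a difference of 2.58. Chst4, a sulfotransferase, and St6galnac2, a sialyltransferase, differed by 2.08 and 2.03. St3gal4, another sialyltransferase, read 11.13 in GFPhigh and 9.77 in GFPlow, a difference of -1.36. A4gnt, which caps chains of gland mucins, was at least 2.96 higher.

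Below the secretory factors, the general machinery of the endoplasmic reticulum was higher by small amounts over many members, with few past 2-fold. Of 32 measured folding genes 2 were 2-fold or more higher, and 0 of 28 translocon genes and 3 of 32 traffic genes. Above 0 were 26 folding genes, 25 translocon genes and 23 traffic genes, with medians of 0.18, 0.38 and 0.26. Kdelr3, which returns escaped proteins to the endoplasmic reticulum, had the largest difference of all genes measured on both arrays, at 5.27 in GFPhigh and 9.02 in GFPlow, a difference of 3.75. Its relatives Kdelr1 and Kdelr2 differed by 0.35 and 0.69. Sec24d, a coat subunit of transport vesicles, read 9.10 in GFPhigh and 10.42 in GFPlow, a difference of 1.32. Pdia5 and Pdia6, which rearrange disulfide bonds, were the folding genes past 2-fold, with Pdia6 at 9.34 in GFPhigh and 11.03 in GFPlow, a difference of 1.68. Hspa5, the main chaperone there, and the stress factor Xbp1 differed by 0.62 and 0.49. The stress element ERSE, CCAAT and CCACG with 9 bases between, stood in 9 of 27 folding gene promoters (33.3%) against 0.137% of all genes. It contains a CCAAT box, which stood in 81.5% of these promoters against 41.1% of all. The 9 with the element had a median difference of 0.25 and the 18 without it 0.17. Pdia6 (chr12:17266459-17266608, plus strand) is shown with the element in capitals.
Pdia6: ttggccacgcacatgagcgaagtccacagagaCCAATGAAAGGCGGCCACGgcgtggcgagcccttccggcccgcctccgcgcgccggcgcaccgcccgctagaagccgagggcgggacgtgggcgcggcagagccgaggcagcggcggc

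Enteroendocrine genes were lower in 4 of 8 measured and higher in 0, with 7 of 8 below 0. Gcg, which encodes the glucagon-like peptides, read 10.51 in GFPhigh and 8.64 in GFPlow, a difference of -1.88. Tac1, the precursor of substance P, read 12.38 in GFPhigh and 10.77 in GFPlow, a difference of -1.62. Chga, a granule protein, read 6.42 in GFPhigh and 5.2 in GFPlow, a difference of -1.22. Chgb, a second granule protein, read 9.44 in GFPhigh and 9.34 in GFPlow, a difference of -0.09, and Pyy, the peptide YY hormone, differed by -0.40. The hormones of other endocrine subtypes, Cck, Sst and Nts, were under the floor, at 2.60 and 2.63, 1.70 and 1.73, and 2.10 and 2.35. Of 16 tuft cell genes 1 was measured, and Dclk1 and Trpm5 read 2.85 and 3.10 and 3.73 and 3.49.

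Salt and water transport was divided between secretion and absorption. Of 26 measured transport genes 8 were 2-fold or more lower and 3 higher. Higher in GFPlow were genes of potassium and chloride secretion. Kcnma1, the large-conductance potassium channel, read 5.45 in GFPhigh and 8.03 in GFPlow, a difference of 2.58. Kcnn4, a calcium-activated potassium channel, read 9.18 in GFPhigh and 10.74 in GFPlow, a difference of 1.56. Kcne3 and Kcnq1, whose products form one potassium channel, differed by 1.01 and 0.98, and the chloride channel Cftr by 0.86. Lower were genes of absorption. Slc9a3, the sodium-proton exchanger of the brush border, read 12.56 in GFPhigh and 11.53 in GFPlow, a difference of -1.03, with -0.33 on its weakest probe set. Scnn1a, the sodium channel subunit, read 9.64 in GFPhigh and 8.48 in GFPlow, a difference of -1.15. Sgk1, the kinase through which aldosterone acts on that channel, read 13.57 in GFPhigh and 12.25 in GFPlow, a difference of -1.32. Fxyd4, a sodium pump modulator, read 11.61 in GFPhigh and 9.85 in GFPlow, a difference of -1.76. Ano1, a chloride channel of secretion, was an exception to this division at -0.82, and Slc26a3, the chloride-bicarbonate exchanger, read 14.30 in GFPhigh and 13.50 in GFPlow, a difference of -0.80.

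The water channels were not alike either. Aqp1 read 5.26 in GFPhigh and 8.47 in GFPlow, a difference of 3.21. Aqp8, the channel of surface colonocytes, read 13.38 in GFPhigh and 12.41 in GFPlow, a difference of -0.97, and Aqp4 differed by -0.15. Claudins, which set what passes between cells, separated in the same manner. Cldn2, which lets sodium and water through, read 10.98 in GFPhigh and 12.90 in GFPlow, a difference of 1.91. Cldn15, another cation pore, read 9.51 in GFPhigh and 11.28 in GFPlow, a difference of 1.77. Cldn8 and Cldn23, of upper colonic cells, differed by -0.83 and -0.84. Cldn3 and Cldn7, found in cells throughout the epithelium, differed by -0.12 and -0.16. Adherens junction and desmosome genes were below 0 in all 13 measured, 2 of them past 2-fold. Evpl, envoplakin, read 10.25 in GFPhigh and 9.12 in GFPlow, a difference of -1.13, and Jup, plakoglobin, read 10.13 in GFPhigh and 9.09 in GFPlow, a difference of -1.04. Cdh1, E-cadherin, differed by -0.22.

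The brush border was lower as a whole by small amounts. Of 25 measured genes 24 were below 0 with a median of -0.69, and 4 were past 2-fold. Cdhr1 read 9.67 in GFPhigh and 8.19 in GFPlow, a difference of -1.48. Cobl, an actin nucleator of microvilli, read 10.49 in GFPhigh and 9.2 in GFPlow, a difference of -1.28. Vil1, the microvillus bundler villin, read 13.75 in GFPhigh and 13.01 in GFPlow, a difference of -0.74. Dpp4, an apical peptidase, was the one gene higher, at 7.93 in GFPhigh and 9.26 in GFPlow, a difference of 1.33, and both its probe sets were past 2-fold, at 1.09 and 1.33. Krt20, the keratin of mature colonocytes, read 14.99 in GFPhigh and 14.14 in GFPlow, a difference of -0.84. Krt7, a keratin of other ducts, read 10.56 in GFPhigh and 11.70 in GFPlow, a difference of 1.14. Of 8 measured keratins 1 was 2-fold or more higher and 1 lower, the latter at -1.91. Car1 and Car4, the carbonic anhydrases of colonocytes, differed by -0.54 and -0.95, and Car2 by 0.08.

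**Figure D5:**
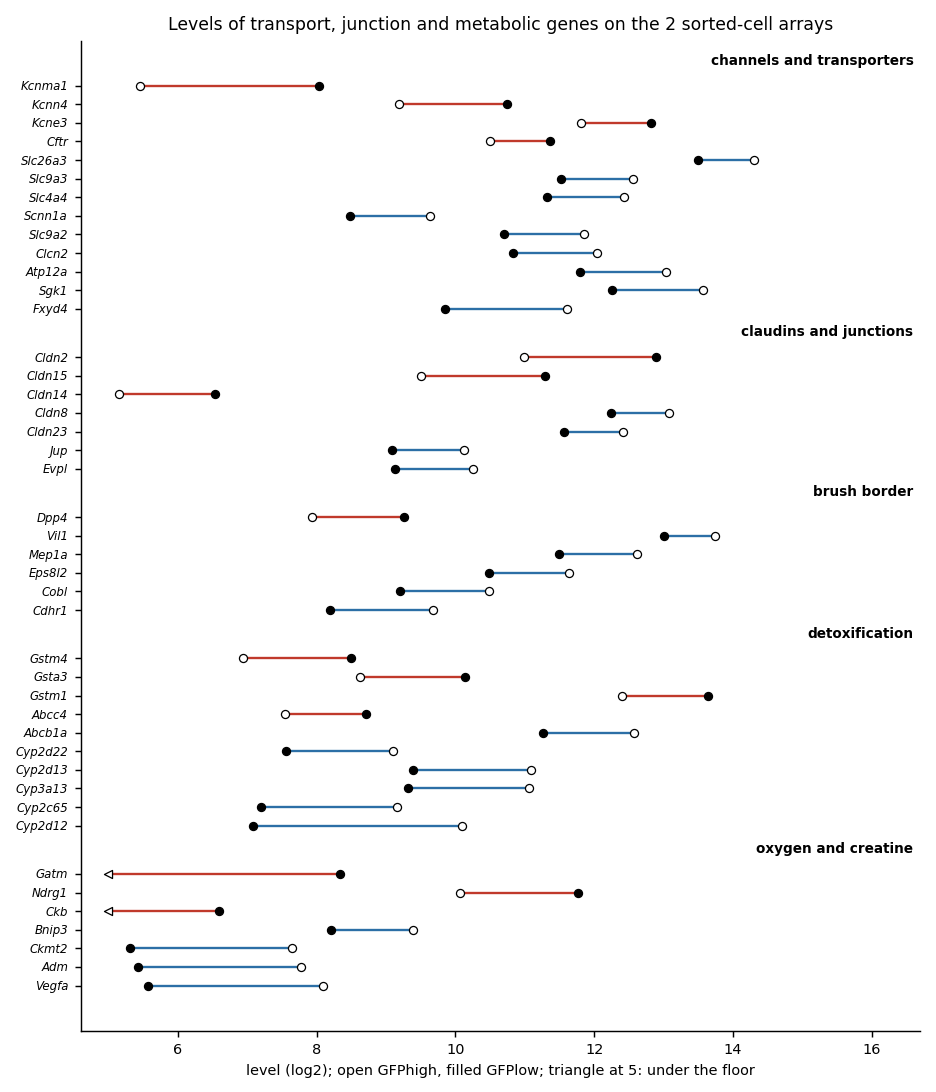
Levels (log2, horizontal axis) of transport, junction, brush border, detoxification, oxygen and creatine genes in GFPhigh (open circles) and GFPlow (filled circles), joined by a red line where GFPlow is higher and a blue line where it is lower, with triangles at 5 for values under the floor. Potassium channels, Cldn2, Cldn15, Dpp4 and glutathione transferases lie to the right in GFPlow, and sodium transporters, Cyp genes and Vegfa to the left.

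Of 58 measured detoxification genes 14 were 2-fold or more lower and 6 higher. Of 18 cytochromes P450, which oxidise drugs and lipids, 9 were lower and 1 higher, and of 16 glutathione transferases, which attach glutathione, 0 were lower and 3 higher. Cyp2d12 read 10.10 in GFPhigh and 7.08 in GFPlow, a difference of -3.02. Cyp2c65 read 9.15 in GFPhigh and 7.19 in GFPlow, a difference of -1.96. Cyp3a13 differed by -1.74 and Cyp2d13 by -1.70, and probes of the near-identical Cyp2d genes can share RNA, so their separate values are uncertain. The drug pump Abcb1a and the carboxylesterase Ces2b differed by -1.31 and -1.38. Of the glutathione transferases, Gstm1 read 12.41 in GFPhigh and 13.64 in GFPlow, a difference of 1.23, its lowest probe set giving 0.02. Gsta3 and Gstm4 differed by 1.52 and 1.56, with the same caution for this family. With the mean of probe sets Gstm1 and Gsta3 came to 0.79 and 0.89, under 2-fold. Of secreted phospholipases, Pla2g2a, an antibacterial enzyme, read 12.22 in GFPhigh and 14.42 in GFPlow, a difference of 2.20. Pla2g3 read 9.03 in GFPhigh and 7.55 in GFPlow, a difference of -1.48.

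Interferon-induced genes were mostly lower. Of 34 measured effectors and sensors 29 were below 0, 5 were past 2-fold and 0 were 2-fold or more higher, with a median of -0.53. Mx1, an antiviral GTPase, read 7.74 in GFPhigh and 4.48 in GFPlow, under the floor, a difference of -2.74 or beyond. Ddx60, a helper of RNA sensing, read 9.50 in GFPhigh and 8.28 in GFPlow, a difference of -1.22. Ifit1bl2 read 8.26 in GFPhigh and 5.82 in GFPlow, a difference of -2.43, with -0.23 on its other probe set. Ifit1 and Ifit2, from the same gene family, differed by 0.12 and 0.11, and Bst2, which tethers budding virus, by 0.88. The regulator Irf7 read 10.83 in GFPhigh and 9.55 in GFPlow, a difference of -1.27. Irf5 stood apart, at 4.08 in GFPhigh, under the floor, and 7.64 in GFPlow, a difference of at least 2.64. The core of the interferon-stimulated response element, GAAA and GAAA with 2 bases between, stood in 12 of 25 promoters of the effectors (48.0%) against 3.99% of all genes. Those 12 had a median difference of -0.43 and the 13 without it -0.68. Ddx60 (chr8:61927957-61928106, plus strand) is shown with the core in capitals.
Ddx60: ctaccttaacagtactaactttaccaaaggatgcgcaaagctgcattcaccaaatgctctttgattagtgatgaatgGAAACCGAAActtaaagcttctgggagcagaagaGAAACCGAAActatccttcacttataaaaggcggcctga

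Antigen presentation was lower by amounts mostly under 2-fold. All 6 measured MHC class II genes were below 0, with a median of -0.64. H2-Aa, a class II chain, read 13.14 in GFPhigh and 12.15 in GFPlow, a difference of -0.99. Ciita, the master activator of class II genes, read 6.76 in GFPhigh and 4.06 in GFPlow, under the floor, a difference of -1.76 or beyond. Nlrc5, its counterpart for class I, read 6.64 in GFPhigh and 4.94 in GFPlow, under the floor, a difference of -1.64 or beyond. The class I light chain B2m differed by -0.31 and the peptide transporter Tap1 by -0.55. Because class II genes are also made by white blood cells, the values of Ptprc (2.47 and 4.41) and of the B cell gene Cd79a (2.10 and 2.10), all under the floor, stand beside them. Of 6 B and plasma cell genes only Ighm, an antibody heavy chain, was measured, at 5.14 in GFPhigh and 4.59 in GFPlow, under the floor, a difference of -0.14 or beyond, and the 6 levels summed to 19.68 in GFPhigh and 18.98 in GFPlow. Among defence genes, the antibacterial lectin Reg3b read 4.71 in GFPhigh, under the floor, and 7.29 in GFPlow, a difference of at least 2.29. Nod1, a sensor of bacterial cell walls, read 7.30 in GFPhigh and 8.68 in GFPlow, a difference of 1.38, and Tlr2 differed by 1.01. Tlr4 differed by -0.94, and Saa1, serum amyloid A, read 14.59 in GFPhigh and 13.53 in GFPlow, a difference of -1.06.

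Stress and immediate-early genes, which can respond to tissue handling, were near equal. Fos read 14.96 in GFPhigh and 14.98 in GFPlow, a difference of 0.02. Hspa1a, the inducible heat shock chaperone, read 12.27 in GFPhigh and 12.39 in GFPlow, a difference of 0.12. Of 17 immediate-early genes 1 was past 2-fold, Maff at -1.11, and of 8 heat shock genes 1, Hspb1, a small chaperone, at 5.26 in GFPhigh and 7.49 in GFPlow, a difference of 2.22. Of 14 measured genes of the p53 pathway 2 were 2-fold or more higher and 0 lower, with a median of 0.03 and the lowest at -0.998. The largest difference was that of Plk2, at 6.67 in GFPhigh and 8.77 in GFPlow, a difference of 2.11. The p53 inhibitor Mdm2 and the target Ccng1 differed by -0.06 and -0.06. The factors that define the gut and its position were near equal too. Hoxb13, of the distal colon, read 13.21 in GFPhigh and 13.17 in GFPlow, a difference of -0.04. Hnf4a, Cdx1 and Cdx2 differed by -0.24, 0.34 and -0.49, while Hnf4g, a relative of Hnf4a, read 7.08 in GFPhigh and 6.0 in GFPlow, a difference of -1.08.

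The remaining genes with the largest differences came from inside and outside these groups. Ffar2, a receptor for short-chain fatty acids, read 5.33 in GFPhigh and 8.95 in GFPlow, a difference of 3.62. Bcl2, which protects cells from apoptosis, read 5.79 in GFPhigh and 8.92 in GFPlow, a difference of 3.13, with 0.45 on its other probe set. Plpp1, a lipid phosphatase, read 6.95 in GFPhigh and 10.44 in GFPlow, a difference of 3.49. Maged1 differed by 3.15, Plcb4, a phospholipase C, by 3.32, and Smoc2, a matrix protein of crypt base cells, by 3.58, though its other probe set gave 0.57. Bounds were at least 3.70 for Anln, of the contractile ring, 3.47 for the phosphatase Ptpro, 3.28 for the receptor Gpr20 and 3.26 for Csrp1. They were at least 2.89 for Cps1, the entry enzyme of the urea cycle, 2.81 for the protease Tmprss13 and 3.11 for the helicase subunit Mcm3, whose lowest probe set gave 1.89. In the other direction, Fabp5, a fatty acid carrier, read 8.24 in GFPhigh and 5.14 in GFPlow, a difference of -3.10, with -1.16 on its other probe set. Abcg5, an exporter of plant sterols, read 10.20 in GFPhigh and 7.80 in GFPlow, a difference of -2.40. Tat, which breaks down tyrosine, read 9.78 in GFPhigh and 7.31 in GFPlow, a difference of -2.47. Slc34a2, a phosphate importer, and Hsd3b2, of steroid metabolism, differed by -2.44 and -2.40. Rhof, Myof, Ly6m, Kifc2 and Ss18l1 differed by -2.75, -2.36, -2.85, -2.54 and -2.46. Methig1, Padi4, Gm15666, Syt11 and Lrrc20 were under the floor in GFPlow, with differences of -3.34, -2.80, -2.45, -2.35 and -2.34 or beyond. The next bounds were those of Rdh16f2 (-2.08), Ly6g2 (-2.06), Hspa12a (-2.01) and Ahnak2 (-1.99).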

How the data were processed

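Total RNA of the colon was measured on 4 arrays, 2 of them used here, 1 per group. The deposited values are on a log2 scale, 1 for each probe set on each array. The submitters' processing notes name GCRMA, which corrects background by probe sequence and summarises the probes of a set. The sources used here state neither its version nor which arrays were normalized together, and low values depend on the background model. Of 45101 probe sets, 34958 had 1 gene symbol in the platform annotation, 932 several and 9211 none, and only the first were used. Each of 18194 genes was represented by the probe set that averaged highest across the 4 arrays, values under 5 were set to 5, and differences of 2-fold were counted. Each group had 1 array, which limits the precision, and no test was run.

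The members and lists were chosen with earlier results of these data known. The rule for named genes took, of each list, the largest members past 2-fold and some near 0 or defining it, and the 15 largest differences and 10 largest bounds in each direction among genes whose probe sets pointed 1 way. Not every list member it takes is named, and further members were chosen after their values were seen. Promoters were RefSeq windows of GRCm38.p6. Alternatives were floors of 4 and 6 and none, a 3-fold threshold, quantile normalization, a loess correction (span 0.4), the mean of a gene's probe sets, the highest probe set of these 2 arrays, and leaving out probe sets that can match several transcripts. A shift by the spikes was added after the data were seen. Counting was tested on simulated data. Python 3.11.15, pandas 2.3.3, numpy 2.4.6, statsmodels 0.14.6 and matplotlib 3.10.9 were used.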

Additional observations from a re-analysis of the deposited data

How the results depend on the processing

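The counts of 826 genes higher and 403 lower stayed within 1.5 times under the planned floors, normalizations and probe set rules, at 690 to 926 and 347 to 460. A 3-fold threshold gave 348 and 93 by its construction. Raising GFPlow by the median spike difference of 0.645, an alternative chosen after the data were seen, gave 2658 and 97, and left 3 instead of 30 of 76 list medians below 0, so directions of lower lists hold only on the deposited scale. Of 76 list medians 69 kept their sign under all 8 planned settings that can move them. Of 188 named genes past 2-fold, 187 kept their sign and 158 also stayed past 2-fold. The exception was Rpf2, at -0.24 without probe sets that can match several transcripts. With a floor of 6, Ang4, Chga, Ciita, Ckb, Ereg, Esco2, Fzd6, Hilpda, Id4, Itgae, Mthfd2, Nlrc5, Nup107 and Ahnak2 also fell under 2-fold because the floor cuts the bound or the lower level. The mean of probe sets took Gsta3 (0.89), Gstm1 (0.79), Hdac2 (0.90), Lipa (-0.96), Nup85 (0.86), Saa1 (-0.88), Slc9a3 (-0.68) and Tet2 (-0.98) under 2-fold. The probe set chosen on these 2 arrays did so for Abcb1a (-0.78), Hnf4g (-0.91) and Lrig1 (0.93), and leaving out probe sets that match several transcripts for Kif11 (0.86). Tlr2 became 0.95 with quantile normalization. Over all planned settings the smallest differences of Hdac2, Lipa and Saa1 were 0.74, -0.73 and -0.71, smaller than with the mean of probe sets. No paired analysis was possible because each group has 1 array, and leaving out a replicate was not possible for the same reason. Signal limits the low genes: 464 of 9381 differences are bounds.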
